A study of Mus musculus with 2 samples.

Results

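Alveolar macrophages of a mouse lung single-cell library titled control were described across their genes and across their cells. The cells were chosen by measured values, in 1 step, among barcodes with at least 200 genes and a mitochondrial UMI share of at most 15%. A cell had to hold a UMI (a counted RNA molecule) of at least 3 of 8 genes: Marco, Pparg, Plet1, Krt79, Fabp1, Cidec, Atp6v0d2 and Ear2. It also had to hold Chil3 at 10 or more UMIs per 10000, the sum of C1qa, C1qb and C1qc under 10 UMIs per 10000, and no UMI of Cd3e or Cd79a. The rule found 389 cells. They were 16.6% (exact binomial 95% interval 15.1 to 18.2%) of the 2342 control barcodes past the limits, of 4688 in both libraries, and held 36.8% of the control library's UMIs.

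Single cells were profiled by 10x Genomics 3′ chemistry after collagenase digestion of the lungs of C57BL/6 mice with the I73T mutation of surfactant protein C. It holds 2 libraries, 1 titled control and 1 titled injured, and the design text speaks of a steady state and of 14 days after injury. Both groups carry the mutant allele, so the control is not a wild-type lung. A single oral dose of 175 mg/kg tamoxifen in corn oil removes a neomycin cassette and raises mutant expression, and a gavage of corn oil is named without a stated use. The treatment tags run against the titles: the library titled control is tagged as tamoxifen treated and the one titled injured as untreated. Groups were taken from the titles, and every direction below is between the libraries so titled. The number of animals behind a library is not stated. Lungs were lavaged before digestion, so the cells described are those that lavage left in the tissue. With 1 library per group there is no replicate and no test between groups. Levels of summed UMIs are given as CPM, UMIs scaled to 1000000 of the summed cells, with exact Poisson 95% intervals, shares with exact binomial ones, and ratios with exact conditional intervals, all of which cover counting error only.

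Alveolar macrophages are the resident phagocytes of the air spaces. They take up and break down surfactant, a mixture rich in lipid, and depend on granulocyte-macrophage colony-stimulating factor (GM-CSF), transforming growth factor beta and the lipid-sensing nuclear receptor PPAR gamma for their identity. They renew themselves by local division, while lung injury adds monocyte-derived macrophages that hold different genes at first.

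The rule did not use 12 further alveolar macrophage genes, and each was higher in members than in the other control cells. They summed to 10643 CPM in members and 1418 CPM in the other control cells. Among them were Lpl (2306 against 247 CPM), Mrc1 (843 against 74.8) and Krt19 (622 against 104). Car4 (473 against 113), Fabp4 (367 against 68.1) and Siglecf (121 against 9.95) were others. All 12 were above 20 CPM in members, a level that most of them also passed in the other control cells. Markers of other lineages were mostly low, and part of that was set by the rule, which limits the C1q genes and bars Cd3e and Cd79a. No member had a UMI of Folr2, Ly6g, Flt3, Xcr1 or of the eosinophil genes Epx, Prg2, Ccr3 and Il5ra, where 3 counts of the summed UMIs would be 0.492 CPM. All 8 interstitial macrophage markers were under 20 CPM, and their summed level was 0 in the median cell and reached 1615 CPM in a single cell. The 7 T and NK markers, the 6 B cell markers and the 8 dendritic markers were each under 20 CPM, and summed to 26.4, 19.8 and 4.76 CPM. Monocyte markers summed to 218 CPM, of which Nr4a1, also an immediate early gene, held 143. Neutrophil markers summed to 117 CPM and reached 17160 CPM in 1 cell. At full depth S100a8 was in 31.1% of members (49.5 CPM), Csf3r in 26.0% and S100a9 in 21.1%, while Ly6g was at 0. Control cells with at least 3000 UMIs were also thinned to that number. S100a8 was then found in 8.89% of 315 members, 4.52% of 310 B cells and 2.82% of 248 T cells. S100a9 was found in 3.81%, 6.13% and 7.26% of these sets, so its share was lower in members than in B or T cells. Csf3r was not compared in this way. Of 6 endothelial markers 5 were under 20 CPM, and Calcrl was at 29.9 CPM in 32.4% of members. Of 11 epithelial markers 3 were above 20 CPM. Scgb1a1, the club cell secretory protein, had a UMI in 388 of 389 cells, the adhesion gene Epcam stood at 105 CPM and Cdh1, which encodes E-cadherin, at 45.6 CPM. At 3000 UMIs per cell, Epcam was found in 23.2% of members, 1.61% of B cells and 1.21% of T cells. Cdh1 was found in 10.8%, 0.323% and 0% of the same sets, and Scgb1a1 in 94.6%, 97.4% and 94.0%. The part of RNA from other cells in other results was not tested.

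Scgb1a1 was in nearly every cell of other types too: 99.7% of 328 B cells (2934 CPM) and 98.9% of 262 T cells (3776 CPM) held a UMI, against 99.7% of members (1040 CPM). It was lower in injured-library macrophages (456 CPM). Free RNA gives UMIs in cells that do not express a gene. The same comparison was made for genes of the resident programme. Of these Ear1 and Siglecf were not in the rule, while the shares of Fabp1, Krt79, Cidec and Chil3 in members were raised by selection and are a description. After each cell was thinned to 3000 UMIs, Fabp1 was found in 54.6% (48.9 to 60.2%) of 315 members and in 1.29% (0.353 to 3.27%) of 310 B cells. Unthinned, the shares were 76.1% at a median of 16562 UMIs and 2.74% at a median of 4560. Ear1 was found in 66.3% against 2.58% and Siglecf in 27.9% against 0.645% of thinned cells, Krt79 in 68.9% against 2.26% and Cidec in 52.1% against 0.968%. Chil3, which the rule requires, was in 19.4% of thinned B cells.

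Members held 524 to 45827 UMIs (median 16562) and a median of 4215 genes, with a median mitochondrial share of 4.18%. They were deeper than the control barcodes as a whole, whose median was 4514. No library shared a member's barcode with the other. The number of the rule's genes was lower in shallow cells: 144 cells held all 8, 108 held 7 and 28 held only 3, and 25 of those 28, but 3 of the 144, had under 3000 UMIs. In all, 74 members were below 3000 UMIs. At the edges of the rule, 80 cells failed on the number of genes alone (2 against 3 just inside), and 14 on Chil3 alone (9.65 per 10000 just outside, 10.3 just inside). A further 35 failed on Cd79a alone, 6 on Cd3e, 11 on the mitochondrial limit, and 2 on C1q, with 13 per 10000 just outside and 0.597 just inside. Only 3 members had any C1q UMI.

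The resident programme was led by secreted and lysosomal products. Lyz2, which encodes lysozyme, stood at 16679 CPM and was the second most abundant transcript. The ferritin chains Fth1 and Ftl1 stood at 13474 and 11170 CPM, and Chil3, a chitinase-like lectin, at 11076 CPM (10993 to 11160). Among the 315 cells with at least 3000 UMIs, Chil3 ran from 24.6 to 369 per 10000 with a median of 101, so every one of these cells was far above the rule's minimum of 10. Other abundant members of the secreted list were the chemokine Ccl6 (3909 CPM), lipoprotein lipase Lpl (2306) and the eosinophil-associated ribonuclease Ear2 (1885).

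On the surface the tetraspanin Cd9 stood at 4138 CPM, the galectin Lgals3 at 2536, the glycoprotein Plet1 at 1305 and the mannose receptor Mrc1 at 843. Of 16 genes of GM-CSF and transforming growth factor beta signalling 5 were at 100 CPM or more, 3 under 10 CPM and 1 of these, Ltbp1, at 0. The GM-CSF receptor chains Csf2ra and Csf2rb stood at 265 and 410 CPM, and the transforming growth factor beta receptors Tgfbr1 and Tgfbr2 at 212 and 198. Pparg was at 147 CPM, with 82.2% of cells of at least 3000 UMIs holding a UMI, beside the myeloid factors Cebpb (1777), Spi1 (523), Runx1 (503) and Cebpa (241). Maf, a factor of other macrophages, was at 1.31 CPM.

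Lipid-handling genes formed a broad part of the programme. Abcg1, the cholesterol and phospholipid exporter, was among its most abundant genes at 1438 CPM. Fatty acid-binding Fabp5 stood at 1074 CPM, the droplet coat gene Plin2 at 909, the cholesterol ester hydrolase Nceh1 at 639, Fabp1 at 497, the lysosomal acid lipase Lipa at 474 and Fabp4 at 367. Cidec, which enlarges lipid droplets, was at 256 CPM, while its relative Cidea and the coat gene Plin5 had 0 counts. Fatty acid oxidation was represented by all 22 genes of its list, from Etfb at 314 CPM down to Ehhadh at 10.8 CPM. Sterol synthesis was low by comparison: only 3 of 18 genes passed 100 CPM, among them Hmgcs1 (113) and Acly (106). Levels here are UMIs of 3′ ends, 1 per captured molecule, and are not divided by transcript length.

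The members were then set against the other 1953 control cells. Of 11372 genes with at least 50 UMIs over both sets, 14% (1589) were higher by 2-fold or more in members and 20.4% (2315) lower, and with the scaling of the median gene, a shift of 0.25 on the log2 scale, these counts were 1141 and 2666. The cells were chosen by 8 of these genes and by Chil3, so this contrast is a description. After the defensin-like gene Spag11b (73.0 against 3.44 CPM, 21.2-fold), the highest ratios were those of Gdf15 (19.7-fold), a stress-induced member of the transforming growth factor beta family, and Fabp1 (19.5-fold, 17.2 to 22.2). They were followed by the short-chain fatty acid receptor Ffar2 (17.1-fold), Marco (15.9-fold), the serotonin transporter Slc6a4 (14.1-fold), Chil3 (13.5-fold), AU022793 (13.3-fold) and the neuropeptide galanin, Gal (13-fold). Slc7a2, a cationic amino acid transporter, Siglecf, coagulation factor F7, Atp6v0d2, Olr1 and Ear1 lay between 11.7-fold and 12.6-fold. All 14 genes of the list of resident genes were higher in members, and 23 of 28 lysosome genes were, with none lower.

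The contrast ran the other way for interferon and antigen-presentation lists. Of 23 interferon-stimulated genes 22 were lower in members, with a median log2 ratio of -3.84, and 12 were under 10 CPM. Isg15, a ubiquitin-like modifier, stood at 7.54 CPM. Of 14 MHC class I genes 10 were lower, although B2m (1359 CPM) was within 2-fold. These ratios depend on the mixture of cell types in the rest of the library, which was not separated here beyond its B and T cells.

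**Figure D1:**
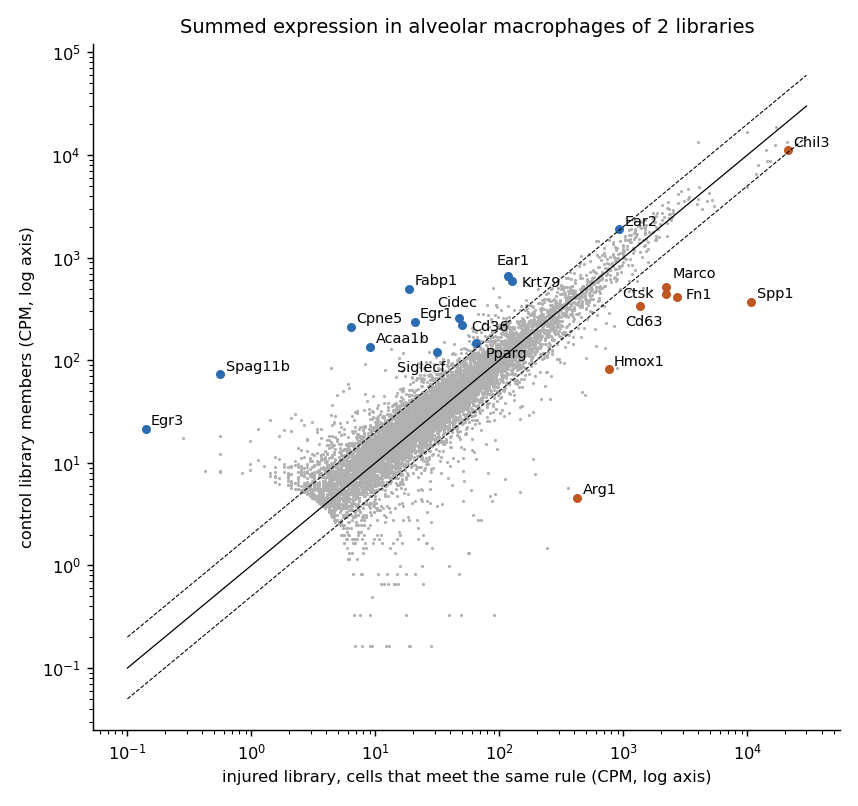
Summed levels (CPM, log axes) of each gene with at least 50 UMIs in control-library members (vertical) and in injured-library cells that meet the same rule (horizontal), genes at 0 in either left out. The solid line is equality and the dashed lines are 2-fold. Labelled genes are named in the text: Fabp1, Cpne5, Spag11b and Egr3 lie far above the line and Spp1 and Arg1 far below it.

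The same rule found 375 cells in the injured library, 16% (14.5 to 17.5%) of its 2346 barcodes past the limits, with a median of 17612 UMIs and a median mitochondrial share of 6.77%. Of 9640 genes with at least 50 UMIs over both sets, 7.06% (681) were higher by 2-fold or more in the control members and 5.11% (493) lower. The median gene stood 0.11 higher on the log2 scale in control, and when that shift was taken out the counts became 536 higher and 599 lower. The split between higher and lower therefore depends on the scaling, and 20 of 329 listed genes, all within 2-fold (Cebpb, Csf2rb and Lipa among them), changed sign with it. No gene past 2-fold did. Ratios below are on the plain CPM scale, and since both sets were chosen by the same rule genes, ratios of Fabp1, Krt79, Cidec, Ear2, Marco, Pparg, Plet1, Atp6v0d2, Chil3 and the C1q genes are descriptions of cells already held to a minimum.

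The lists differed in direction. The list of 14 resident genes was drawn up as genes lowered in recruited cells, and it holds rule genes. Of these 14, 8 were higher in control members by 2-fold or more and 2 lower. Their median log2 ratio was 1.56, against 0.11 over all genes tested. Of 17 surface and receptor genes of alveolar macrophages, 3 were higher and 2 lower (median 0.35). Of 13 secreted and granule genes, 4 were higher and 4 lower (median 0.20). Of the 20 genes known from monocyte-derived and profibrotic macrophages, 16 were lower in control members and 1 higher, with a median of -2.65 (genes at 0 in control members taken at a bound of 3 counts). These lists were written with earlier results of these data known. Immediate early and heat shock genes were higher in 10 of 21 and lower in 2. Between those, the lysosome list had 0 higher and 4 lower of 28, the iron and antioxidant list 0 and 6 of 19, and cell cycle genes 0 and 0 of 24.

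**Figure D2:**
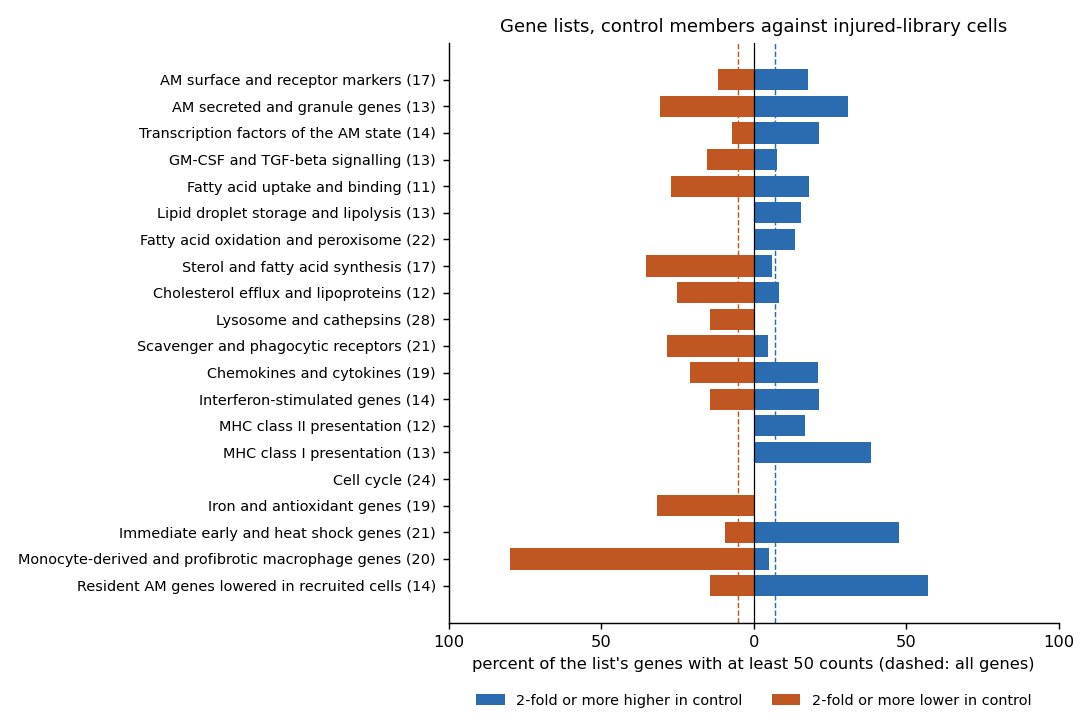
Percent of each list's genes that were 2-fold or more higher (right, blue) or lower (left, orange) in control members than in injured-library cells that meet the rule, with the number of genes with at least 50 counts in parentheses. Dashed lines mark the share of all 9640 genes, 7.06% higher and 5.11% lower. Resident genes extend furthest to the right and profibrotic macrophage genes furthest to the left.

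Fabp1, a cytosolic fatty acid-binding protein best known from liver and gut, gave the largest ratio of the 5 given markers. It stood at 497 CPM (479 to 515) in control members and 18.8 CPM (15.7 to 22.3) in injured-library cells, a ratio of 26.4 (22.2 to 31.7). Over cells with at least 3000 UMIs, the quartiles in control were 0.749, 2.49 and 6.51 per 10000 with a highest cell of 35.4, and in injured the upper quartile was 0 and the highest cell 3.6. The upper quartile of the control members therefore lay above the highest injured-library cell, although cells without a UMI occurred in both. Fabp1 lies on chromosome 6, from 71199827 to 71205023 on the plus strand of GRCm38.

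Pparg, whose product binds DNA with its partner RXR at direct repeats of a 6-base unit spaced by 1 base, was also higher in control members (147 against 65.1 CPM, 2.26-fold, 2.01 to 2.53). The sequence before the Fabp1 start site is shown because such a repeat occurs in it. It is the 150 bases at chr6:71199675-71199824, plus strand, from RefSeq on GRCm38.p6, with the match to AGGNCANAGGNCA, found on the opposite strand, in capitals.
Fabp1: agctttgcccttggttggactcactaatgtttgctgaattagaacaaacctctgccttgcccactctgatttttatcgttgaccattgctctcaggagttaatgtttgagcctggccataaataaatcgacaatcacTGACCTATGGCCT
Either strand of 0.338% of 32851 windows of 250 bases before a start site held a match. The match is a description of letters chosen after the levels were seen, and no binding was measured here.

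Cidec and the ribonuclease genes Ear1 and Ear2 were also higher in control members. Cidec stood at 256 against 47.0 CPM (5.45-fold, 4.84 to 6.16), and its median cell held 2.48 per 10000 in control and 0 in injured. Ear1 was at 665 against 117 CPM (5.70-fold), with medians of 5.01 and 0.314 per 10000. Its neighbour in the family, Ear2, was at 1885 against 924 CPM (2.04-fold), with medians of 17.0 and 7.36. The log2 ratio of Ear2 was 0.92 with the median shift taken out, and 0.90 with each cell weighted the same, so its 2-fold call was lost, as it also was with C1q under 5 per 10000. Both ribonuclease genes belong to a family of near-identical copies, so reads may be shared between them. Ear6 ran the other way, at 6.72 against 52.0 CPM.

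Keratins are intermediate filament genes best known from epithelium, and a pair of them was higher in control members. Krt79 stood at 586 against 128 CPM (4.59-fold, 4.27 to 4.94) and Krt19 at 622 against 113 CPM (5.51-fold). In control the median cell held 5.26 and 5.37 per 10000, and in injured 0.310 and 0.472. Epcam was at 105 against 15.4 CPM (6.78-fold), and Cdh1 ran the other way, at 45.6 against 96.6 CPM, a 2-fold call lost with 10 CPM added to both levels. The epithelial genes Sftpc, Krt8 and Krt18 stood at 9.02, 0.656 and 0.492 CPM in members.

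Siglecf, the lectin used to sort these cells, was at 121 against 31.1 CPM (3.87-fold, 3.33 to 4.52). Cpne5, a calcium-dependent membrane-binding copine, was at 212 against 6.31 CPM (33.6-fold, 25 to 46.3). Spag11b, at 73.0 against 0.561 CPM, gave a ratio of 130 (50.5 to 480) that rests on 4 UMIs in the injured library. In control it was in 127 of 389 members, so it was a gene of some of the cells. Plet1 and Atp6v0d2 differed little, at 1305 against 998 CPM (1.31-fold) and 785 against 713 CPM (1.10-fold).

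**Figure D3:**
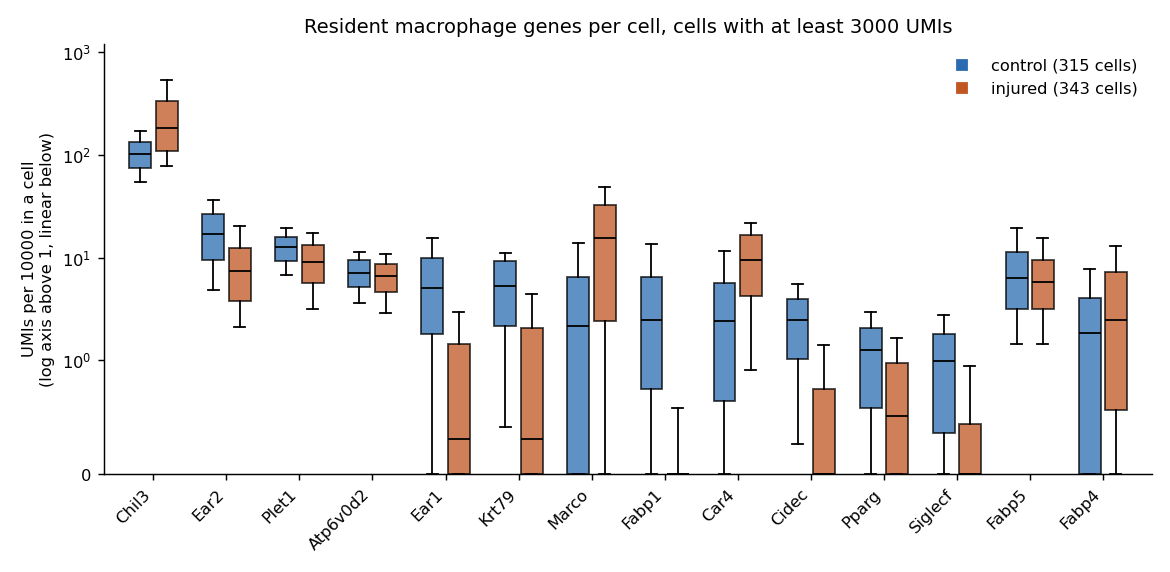
UMIs per 10000 of 14 macrophage genes in single cells (log axis above 1, linear below) for 315 control members and 343 injured-library cells with at least 3000 UMIs. Boxes span the quartiles with the median, and whiskers the 10th and 90th percentile of cells. Ear1, Krt79, Fabp1, Cidec, Pparg and Siglecf are higher in control, and Chil3, Marco and Car4 lower, while Plet1, Atp6v0d2 and Fabp5 overlap broadly.

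Not all resident genes were higher. Marco, a scavenger receptor of the rule itself, was 4.21-fold lower in control members (522 against 2195 CPM, interval 4.05 to 4.37). Its median cell held 2.17 per 10000 in control and 15.4 in injured. Car4, a membrane carbonic anhydrase, was 2.35-fold lower (473 against 1113 CPM), cathepsin K, Ctsk, 4.99-fold lower (439 against 2191), and the secreted Wfdc21 2.86-fold lower (502 against 1436). Chil3 stood at 11076 against 21088 CPM, 1.90-fold lower, and its log2 ratio of -0.93 became -1.04 when the shift of the median gene was taken out. The upper quartile of Chil3 was 134 per 10000 in control and 335 in injured, and the highest cells held 369 and 1871.

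Of 22 fatty acid oxidation genes 3 were higher in control members and none lower, beside 7.06% and 5.11% of all genes, and the list's median log2 ratio was 0.13 against 0.11 over all genes. The 3 were the peroxisomal thiolase Acaa1b (136 against 9.11 CPM, 14.9-fold, 11.6 to 19.5), the enoyl isomerase Ech1 (196 against 92.7, 2.12-fold) and Ehhadh (10.8 against 5.19, 2.09-fold), of which the latter pair lost the 2-fold call when the median shift was taken out. Cd36, a fatty acid transporter, was 4.36-fold higher (219 against 50.2 CPM) and Abcg1 2.30-fold higher (1438 against 625). Acaa1b has a near-identical neighbour, Acaa1a, at 185 against 165 CPM, and reads could be split between them.

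Of 17 sterol and fatty acid synthesis genes 6 were lower in control members and 1, Elovl6, higher, beside 5.11% and 7.06% of all genes. Hmgcs1, which starts the pathway, was at 113 against 244 CPM (2.16-fold lower), Cyp51 at 55.3 against 145 (2.62-fold lower), Sqle at 26.2 against 66.6 and Scd2 at 48.1 against 120. Dbi, an acyl-CoA-binding protein, was 2.19-fold lower (591 against 1297 CPM).

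Iron and lysosome genes were lower or within 2-fold. Haem oxygenase Hmox1 was 9.30-fold lower in control members (81.7 against 760 CPM, interval 8.48 to 10.2), the cystine transporter Slc7a11 3.93-fold lower (30.3 against 119) and Mt2 2.08-fold lower, a call lost without the conditions on Cd3e and Cd79a and with 10 CPM added to both levels. Fth1 stood at 13474 against 20981 CPM and Ftl1 at 11170 against 14087, both within 2-fold. Of the lysosome genes, Ctsl was 3.14-fold lower (231 against 725 CPM) and Cd63 4.04-fold lower (337 against 1362), beside Ctsk.

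Of 20 recruited-macrophage genes with enough counts 16 were lower in control members, beside 5.11% of all genes. Among the 16 were C1qa, C1qb and C1qc, which the rule limits in both sets. Of all 24 in the list 16 were under 10 CPM in members and 4 at 100 CPM or more. Spp1, the gene of osteopontin, stood at 372 against 10750 CPM, 28.9-fold lower (27.7 to 30.2), and Fn1, fibronectin, at 416 against 2708 CPM, 6.51-fold lower (6.25 to 6.79). Neither was absent in control. The quartiles of Spp1 over control cells were 0.488, 1.74 and 4.59 per 10000 and its highest cell 29.0, while the injured median was 58.3 and its highest cell 557. For Fn1 the upper control quartile was 5.82 and the lower injured quartile 18.8, so the middle ranges of the cells did not meet.

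Arg1, arginase 1, was at 4.59 against 426 CPM (92.7-fold lower), the scavenger receptor Msr1 at 7.71 against 193 CPM (25-fold lower) and Mmp12 at 4.92 against 92.4. Ccl24, an eotaxin, had 0 UMIs in control members against 43.5 CPM, at least 88.3-fold lower with the control taken as 3 counts, and 25.5% of its injured UMIs were in 1 cell. Without that cell the bound was 65.9-fold. Timp1, a metalloproteinase inhibitor, and the proteoglycan Sdc4 had 2 UMIs each in control members and 49.2 and 39.4 CPM in injured. Tmem37, Cacna1d, Kcnk13 and Rai14 had 1 UMI each against 12.2 to 19.1 CPM, and AA467197 was at 5.74 against 357 CPM. C1qa and C1qb, which the rule limits in both sets, had 1 and 2 UMIs against 28.0 and 90.3 CPM. Of the list 3 genes were within 2-fold, among them Gpnmb at 172 against 146 CPM, and Ly6c2 was higher in control members, at 7.71 against 2.10 CPM. Its ratio of 3.67 was 2.35 without the member that held 36.2% of its 47 UMIs, and 13.7 without the injured-library cell that held 73.3% of the UMIs there.

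The 196 C1q macrophages of the injured library gave a further reference. Against them 9.97% of 9329 genes were higher in control members and 7.52% lower. Rule genes are in the resident list and the C1q genes, by which both sets were chosen, in the recruited list, so these counts are a description. Of the 14 resident genes 11 were higher (median log2 ratio 3.67), and of 22 recruited-macrophage genes 21 were lower and none higher (median -6.06). Of the rule's genes, Fabp1 went from 497 CPM in control members to 18.8 in injured-library cells of the same rule and 2.23 in C1q macrophages, Krt79 from 586 to 128 and 5.84, and Cidec from 256 to 47.0 and 3.62. Spp1 went from 372 to 10750 and 12106.5, and Arg1 from 4.59 to 426 and 2688. Both comparisons share the control members. For these genes the injured-library cells of the rule lay between the other sets, which does not hold for every resident gene. Of the 14, 2 (Marco and Car4) were lower in control members than in injured-library cells by 2-fold or more. None of the 14 was lower by 2-fold in control members than in C1q macrophages. For Marco and Car4 the injured-library cells therefore stood above both other sets.

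Over all genes, the highest ratios to injured-library cells were those of Egr3 (153-fold, 131 UMIs against 1, interval 27.0 to 6098), Spag11b, Cpne5, Gzma and Fabp1. Gzma, a granzyme, rested on 1 cell that held 76.8% of its 112 UMIs, and was 7.63-fold without that cell. Other genes of this group were the dynein gene Dnah11 (21.9-fold), the potassium channel Kcnh4 (19.9-fold), the receptor Igflr1 (83.3 against 4.35 CPM, 19.2-fold), the protease Klk8 (19.0-fold), the coronin Coro6 (18.5-fold), the chemokine receptor Cxcr1 (16.7-fold) and Acaa1b. Of these only Cpne5, Fabp1 and Acaa1b exceeded 100 CPM in members.

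Immediate early genes encode factors made soon after a stimulus. In control members the early growth response gene Egr1 was at 237 against 20.8 CPM (11.4-fold, 9.63 to 13.6), Phlda1 at 166 against 23.6 (7.05-fold), Btg2 at 510 against 89.2 (5.72-fold) and Fosb at 283 against 66.7 (4.24-fold). Of the heat shock genes, Hspa1b and Hspa1a stood at 7.38 and 5.25 CPM, against 1.54 each. Nfkbia, an inhibitor of nuclear factor kappa B, was 3.17-fold lower (77.1 against 244 CPM) and Ier3 2.09-fold lower, a call lost with each cell weighted the same (log2 ratio -0.78) and with 10 CPM added. Over cells the median of the list's summed level was 0.498% of UMIs in control. At 3000 UMIs per cell, 31.4% (26.3 to 36.9%) of 315 control members and 8.16% (5.49 to 11.6%) of 343 injured-library cells held 10 or more of the 22 genes, and unthinned 75.1% and 74.7% did. The median mitochondrial share, 4.18% in control and 6.77% in injured, differed beside it, and its part in the result was not tested.

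Cytokine genes of the same kind were mixed. Tnf was 5.63-fold higher in control members (46.6 against 8.27 CPM), Ccl2 3.36-fold (66.9 against 19.9), Ccl3 3.32-fold (144 against 43.5) and Cxcl2 2.31-fold (259 against 112; log2 ratio 0.97 with each cell weighted the same). Il1b was within 2-fold (173 against 193 CPM). Ccl17 and Cxcl16 were lower, at 2.79 against 66.7 and 5.41 against 58.9 CPM.

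Antigen presentation genes were higher in control members or within 2-fold. Of 13 class I genes 5 were higher and none lower, with a median log2 ratio of 0.88. These were H2-Q4, H2-Q6, H2-Q7, H2-T23 (129 against 48.7 CPM, 2.66-fold) and the immunoproteasome subunit Psmb9 (74.1 against 32.4, 2.29-fold). The H2-Q genes are near-identical copies, each at 23.3 CPM or less, so their split is uncertain. Of 12 class II genes the costimulatory Cd83 (50.2 against 5.47 CPM, 9.18-fold) and Cd80 (26.7 against 9.39) were higher. Cd74, the invariant chain, reached 1.81-fold (1254 against 692 CPM) and H2-Aa 1.30-fold.

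Interferon-stimulated genes stayed low in both libraries, with list sums of 484 and 511 CPM. Ifitm3 was 4.68-fold higher in control members (44.6 against 9.53 CPM), but 34.9% of its 272 UMIs were in 1 cell, and its log2 ratio was 0.64 without the cells that scored highest for doublets. Ifitm2 was 2.82-fold lower.

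How the members varied among themselves was read after each of the 315 cells with at least 3000 UMIs was thinned to that number. Counting alone gives a variance equal to the mean. Of 2446 genes with a mean of at least 0.2 UMIs, the median ratio of variance to mean was 1.06, 155 genes were over 1.5 and 74 over 2. In the injured library 100 of 2334 genes were over 2.

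**Figure D4:**
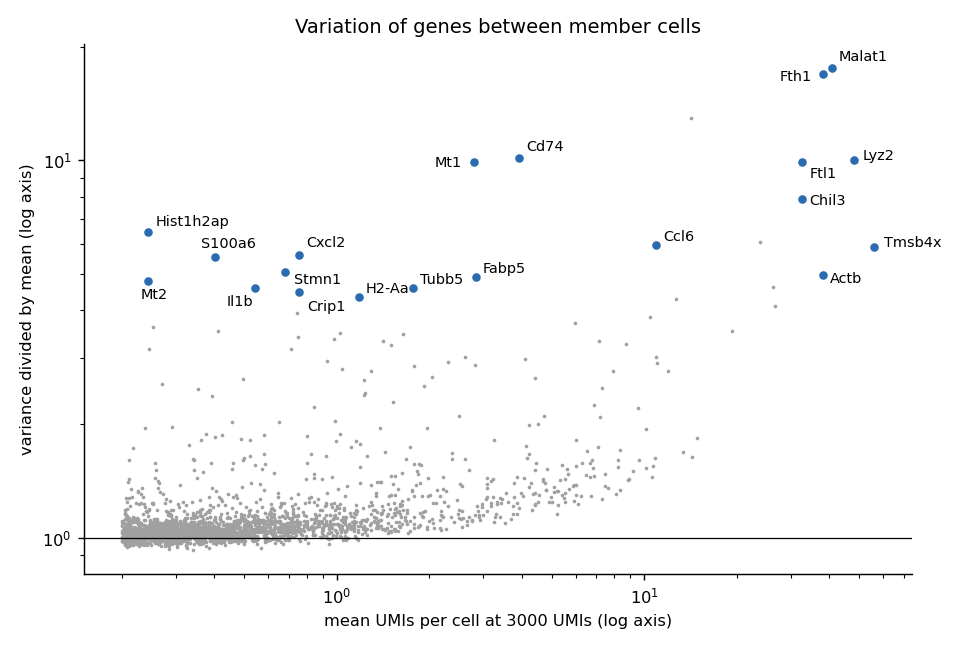
Ratio of variance to mean (log axis) against mean UMIs per cell (log axis) for 2446 genes over 315 members thinned to 3000 UMIs. The line at 1 is the value from counting alone, and the 20 genes of highest ratio are labelled, mitochondrial, ribosomal and unnamed gene models left aside. Abundant genes such as Malat1, Fth1 and Lyz2 stand at the right, and Cd74, Mt1 and Cxcl2 stand high at lower means.

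The ratio grows with a gene's level, so abundant genes rank high by it. Malat1, a nuclear RNA, had a ratio of 17.5. The ferritin genes Fth1 (16.9) and Ftl1 (9.91) came with the metallothioneins Mt1 (9.90) and Mt2 (4.80), which bind metal. Secreted products included Lyz2 (9.99), Chil3 (7.88) and Ccl6 (5.97). Cd74 (10.1) and H2-Aa (4.34) stood for antigen presentation, and the inflammatory Cxcl2 (5.62) and Il1b (4.59) for cytokines. Genes of dividing cells were Hist1h2ap (6.47), Stmn1 (5.07) and Tubb5 (4.60). Also among the 20 were Tmsb4x (5.88), S100a6 (5.55), Actb (4.96), Fabp5 (4.90) and Crip1 (4.46). The spread beyond counting, as a coefficient of variation, gave another order: it was 4.74 for Hist1h2ap, 3.95 for Mt2, 3.36 for S100a6 and 1.53 for Cd74, and 0.637 for Malat1, 0.459 for Chil3, 0.432 for Lyz2 and 0.295 for Tmsb4x.

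The rule genes themselves differed in this ratio, which follows a gene's level, so no order of evenness is read from it. It was 3.70 for Ear2, 3.32 for Marco and 3.24 for Fabp1, and outside the rule 2.76 for Car4 and 2.66 for Ear1. The ratio was lower for Krt79 (1.74), Plet1 (1.45), Atp6v0d2 (1.33), Cidec (1.3) and Pparg (1.12). Chil3 had a ratio of 7.88 in control members and 57.7 in injured-library cells, at means of 32.6 and 77.8 UMIs per thinned cell. Its ratio thus differed by a larger factor than its mean.

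Class II genes were spread widely over the members. The summed level of the 4 genes Cd74, H2-Aa, H2-Ab1 and H2-Eb1 was 0 in 22 of 315 cells, had a median of 4.4 per 10000, a 90th percentile of 73.3 and a maximum of 211. In 53 cells (16.8%) it was 50 or more. Cd74 and H2-Aa had a Spearman correlation of 0.75 across the 315 cells, the highest of the gene pairs compared, and share library and cell depth. In T cells, which should lack class II, 5.24% of thinned cells held a UMI of H2-Aa, against 38.1% of thinned members. For Cd74, the most abundant of the 4 genes, these shares were 12.9% and 60%. The part of free RNA in the lower class II levels was not tested. Dendritic and B cell markers were low in the summed members, as given above, and the rule bars Cd79a. They were not examined apart in the 53 cells with the highest class II level.

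The promoters of H2-Aa and H2-Eb1 are shown because both hold a Y box, the CTGATTGG element bound by nuclear factor Y that is known from class II promoters. They are RefSeq sequences of GRCm38.p6, each the 150 bases that end with the match, in capitals: chr17:34287867-34288016 on the minus strand and chr17:34305663-34305812 on the plus strand.
H2-Aa: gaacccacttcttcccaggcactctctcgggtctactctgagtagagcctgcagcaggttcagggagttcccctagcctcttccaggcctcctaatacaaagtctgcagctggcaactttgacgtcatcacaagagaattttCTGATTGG
H2-Eb1: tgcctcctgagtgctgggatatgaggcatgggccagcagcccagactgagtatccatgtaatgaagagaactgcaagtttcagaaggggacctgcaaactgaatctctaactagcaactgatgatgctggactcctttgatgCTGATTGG
The element, on either strand, was in 3.83% of the 32851 windows of 250 bases. It begins 51 bases before the H2-Aa start site and 62 before that of H2-Eb1.

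**Figure D5:**
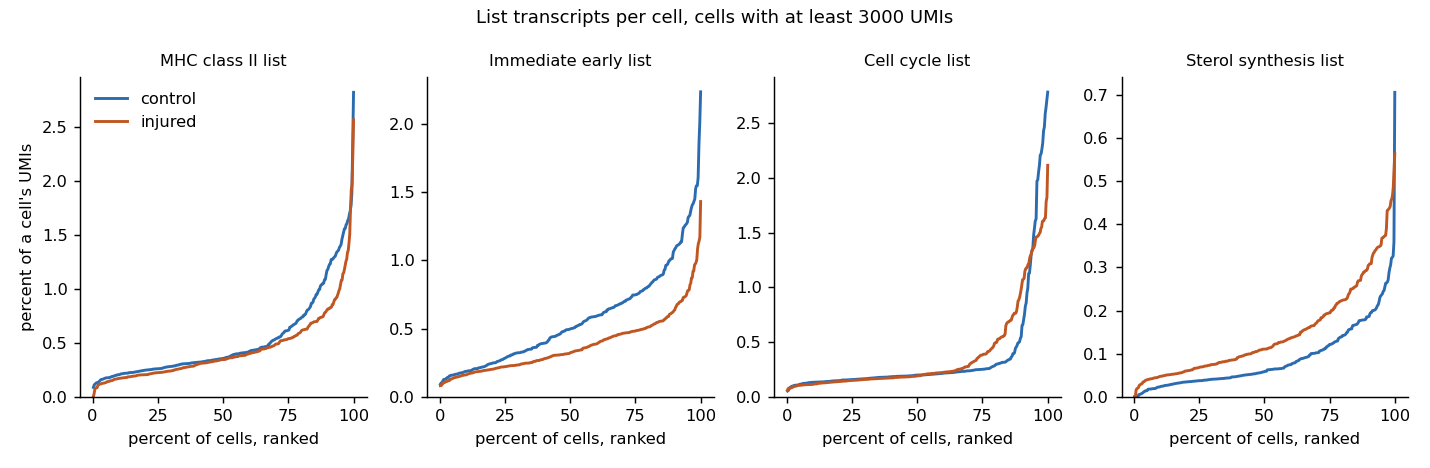
Percent of a cell's UMIs in 4 gene lists (vertical), with cells ranked from lowest to highest along the horizontal axis, for 315 control members (blue) and 343 injured-library cells of the rule (orange), all with at least 3000 UMIs. In control members the median and 90th percentile were 0.356% and 1.18% for class II genes, 0.198% and 0.610% for cell cycle genes, and 0.498% and 1.08% for immediate early genes.

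Immediate early genes also varied between members. The 10th percentile of the list was 0.187% of a cell's UMIs, the median 0.498% and the 90th percentile 1.08%, and the list's sum had a ratio of variance to mean of 7.59. Cxcl2 was at 0 in the median cell, 1.40 per 10000 at the upper quartile and over all members 10 cells held 43.0% of its UMIs. Its promoter is shown because it holds a site of the form bound by nuclear factor kappa B, GGGNATTTCC, found on either strand in 0.280% of windows. The 150 bases are chr5:90903662-90903811 on the plus strand, GRCm38.p6 from RefSeq, with the match in capitals.
Cxcl2: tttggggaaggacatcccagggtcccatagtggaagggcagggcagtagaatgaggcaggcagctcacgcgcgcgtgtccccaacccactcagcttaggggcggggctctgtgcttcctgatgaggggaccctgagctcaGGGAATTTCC

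Dividing cells were a small set. Of 389 members 27 (6.94%, 4.62 to 9.94%) held 10 or more of 18 cycle genes, against 59 of 375 (15.7%, 12.2 to 19.8%) in the injured library. At 3000 UMIs, 15 of 315 (4.76%, 2.69 to 7.73%) and 18 of 343 (5.25%, 3.14 to 8.17%) held 10 or more, so these shares were close. At that depth 27 of 315 (8.57%, 5.72 to 12.2%) and 51 of 343 (14.9%, 11.3 to 19.1%) held 5 or more. The summed list was 3881 CPM in control and 3801 in injured, and Mki67 was at 91.8 against 99.7 CPM, so no order of division is read from the shares. In control, 10 cells held 54.3% of the Mki67 UMIs and 85.7% of those of the histone gene Hist1h2ap.

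Between lists, correlations across cells were weak. Over 171 pairs they ran from -0.33 to 0.41 (n = 315 cells, which share library and depth). The highest was between surface and secreted genes of the programme (0.41). The lowest was between sterol synthesis and cholesterol efflux (-0.33), with Abcg1 at -0.37 and Abca1 at -0.27 against the sterol list. In these sparse counts such values are given as description. Ear1 and Ear2 reached 0.46, Fth1 and Ftl1 0.46.

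Clustering of the members alone gave 4 groups, which are numbered and not named. Cluster 1 (148 cells) was led by Egr3, Nr4a3, Nr4a2, Ccl3, Cxcl2 and Il1b, and cluster 2 (137 cells) by Ptgir and Cited4 at ratios of at most 3.55 to the other members. Cluster 3 (76 cells) had a median of 1487 UMIs, with 66 cells under 3000. It was led by Scgb1a1 (2.47-fold), which was also in nearly every B and T cell, and by Coa3, Xrn2 and Mt1 (2.09-fold). Cluster 4 (28 cells) was led by the mitosis genes Hmmr, Plk1 and Kif20a and had a median of 22574 UMIs. The genes that lead a cluster also formed it, so these are descriptions.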

How the data were processed

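The deposited matrices hold whole-number UMI counts per gene and barcode, without normalization. The authors made these counts with Cell Ranger 4.0.0, as the file headers record. The submitters' processing notes also list STAR 2.7.2c, featureCounts 1.6.3, DESeq2 1.26.0 and 1.28.1 and the build GRCm38 (mm10), without their roles. The control library held 2674 barcodes and 17207816 UMIs, and the injured library 2702 and 22314603. Counts were summed over cells with Python 3.11.15, numpy 2.4.6 and scipy 1.17.1. With 1 library per group no test was made, and a gene was called at 2-fold among genes with at least 50 UMIs over both sets. For variation, cells were thinned to 3000 UMIs in 10 draws. Sub-clusters came from leidenalg 0.10.2. No doublets were removed. Leaving out the 44 highest simulated doublet scores of each library (7 and 4 of its cells that met the rule) was an alternative. Computations were tested on simulated data.

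The members and gene lists were chosen with earlier results of these data known. Named genes were those of the rule, the highest ratios to other control cells and to injured-library cells in either direction, the most variable genes, and of each list the most abundant and the largest ratios. Mitochondrial, ribosomal, immunoglobulin, sex-linked and unnamed gene models were left out of the ranked sets. Motifs were chosen after levels were seen. RefSeq windows were found for 9 of 10 rule and marker genes.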

Additional observations from a re-analysis of the deposited data

How the results depend on the processing

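No paired analysis was possible because each group has 1 library, and for the same reason no replicate could be left out. Of 136 counts and summary values under the alternatives, 112 stayed within the stated limits, 24 moved and 0 reversed. Against injured-library cells the genes higher and lower in control members numbered 206 and 214 with 10 CPM added to both levels, 1204 and 881 with a minimum of 10 counts, 340 and 261 with a minimum of 200, and 1784 and 1109 at 1.5-fold. Against other control cells they numbered 869 and 1237 with 10 CPM added. Those lower numbered 4083 with a minimum of 10 counts and 1134 with 200, and those higher 2887 at 1.5-fold. Thinned to 1000 and 5000 UMIs, 26 and 134 genes had a variance over 2 times the mean. At 1000 UMIs the variance-to-mean ratio was 4.37 for the class II list, 7.67 for cell cycle, 3.91 for immediate early genes and 1.63 for sterol synthesis. At 5000 UMIs it was 33.8 for cell cycle and 12.2 for immediate early genes. Thinning lowers the mean, which this ratio follows. At 1000 UMIs the correlation of lysosome with iron genes was 0.24 and that of sterol synthesis with cholesterol efflux -0.19. The sub-cluster with the highest Egr3 level held 92 cells at resolution 1. Of 121 listed or named genes past 2-fold, 87 were past it in the same direction under every alternative run and none changed sign, while 47 of 329 such genes, all within 2-fold, changed sign under at least 1. With the median shift taken out 4 calls were lost, those of Cebpa (log2 ratio 0.98), Ech1 (0.98), Ehhadh (0.95) and Ear2 (0.92). With each cell weighted the same 7 were lost: Cxcl2 (0.97), Klf2 (0.90), Ear2 (0.90), Scgb1a1 (0.85), Ehhadh (0.55), Ier3 (-0.78) and Slc40a1 (-0.47). The cause of the other moves was not tested. Leaving out cells under 3000 UMIs, the condition on Cd3e and Cd79a, or the cell with most UMIs of a gene was chosen after seeing the data.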
